A study of Mus musculus with 18 samples.

Results

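The genes described here repair DNA breaks or are the topoisomerases whose cutting makes such breaks. They were chosen by name, from a list of 39 genes, and 37 of the 39 could be read on the arrays, among 19938 genes in all. Xrcc2 and Rbbp8 have no row under these names in the annotation used, so they are not described. Of the 37 genes, 28 had a mean signal above the median of all genes. C2C12 is a mouse myoblast line that leaves the cell cycle and fuses into myotubes when serum is reduced. All 18 arrays came from C2C12 cells in which the endogenous TAF3, a subunit of the general transcription factor TFIID, had been stably depleted by shRNA and then replaced by murine TAF3. The 6 groups held 3 arrays each, called biological triplicates in the study. After etoposide (10 µM for 7 hours) they were KK-TAF3 sh-PIP4K2B cells, WT-TAF3 sh-PIP4K2B cells and WT-TAF3 shX cells, and the same 3 genotypes were also taken after differentiation. KK-TAF3 is a mutant that has lost its phosphoinositide binding, and sh-PIP4K2B depletes a lipid kinase that removes the nuclear phosphoinositide PI5P. For WT-TAF3 cells that kept PIP4K2B the labels mention no second shRNA, and shX is the control named in the study's scheme of these cells. The labels give 2 days of differentiation, while the series' design text gives 3 days. On these arrays KK-TAF3 comes only with sh-PIP4K2B, and no array holds growing cells without etoposide. The study describes the etoposide treatment as unrelated to differentiation, and it moved differentiated cells to low horse serum. The drug and the state of the culture therefore cannot be told apart in any comparison of etoposide with differentiation below.

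Type II topoisomerases cut both strands of DNA, pass another duplex through the gap and reseal it. Etoposide stops the resealing step, which leaves the enzyme attached to a broken end, and TOP2A and TOP2B are its targets. Such ends are cleaned by enzymes such as TDP2, sensed by the ATM and ATR kinases, and then joined directly by the KU and ligase IV machinery or copied from the sister chromatid by homologous recombination with proteins such as BRCA1 and BRCA2. Recombination works in S and G2 phase, and many of its genes are transcribed mainly in cycling cells.

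Values are log2 signals as deposited, and a difference is a difference of log2 means with its standard error (SE) from limma. A gene passed the test at a Benjamini-Hochberg adjusted p under 0.05 over all genes together with a change above 1.4-fold. With 3 arrays a group, p-values rest on the spread between arrays within groups. The model pools this spread over the 6 groups for each gene and draws it toward that of all genes. A group with a wider spread than the others can thus have a smaller SE than its own arrays would give. Pip4k2b, the shRNA target, averaged 9.94 ± 0.22 in KK-TAF3 sh-PIP4K2B cells and 9.76 ± 0.15 in WT-TAF3 sh-PIP4K2B cells after etoposide, against 10.65 ± 0.15 in WT-TAF3 shX cells (SD, n = 3 each). After differentiation it averaged 9.86 ± 0.04, 9.55 ± 0.09 and 10.69 ± 0.005 in the same order. The differentiated KK-TAF3 arrays (9.83 to 9.90) lay above those of WT-TAF3 sh-PIP4K2B cells (9.46 to 9.64), so the depletion was weaker in KK-TAF3 cells there. Within groups, arrays correlated at 0.990 to 0.997. Desmin, the muscle intermediate filament, was among the brightest markers at 12.73 to 13.28 over the group means. Markers of 6 other cell types (17 genes) had group means between 5.37 and 7.99, except Pparg at 9.06 to 9.41. Of the 11 muscle markers, Mef2c (6.15 to 6.51), Myh3 (6.25 to 7.29) and Myog (6.77 to 7.95) also lay in that range. Myod1, Ckm and Mymk did so in part of the groups, and Myf5, Acta1, Myl4 and Tnnt3 lay above it. The array medians lay between 7.25 and 7.46. In each of the 6 groups the array with the lowest median held the highest value of more of the 37 genes than either other array. It held 22 to 30 of the 37 in 4 groups, but only 16 in etoposide-treated WT-TAF3 shX cells and 14 in differentiated KK-TAF3 cells. Among etoposide-treated WT-TAF3 sh-PIP4K2B cells, replicate 1 held the highest value of 30 of the 37 genes, and their median there was 8.89, compared with 8.52 and 8.45 on replicates 2 and 3. The alternatives below leave out single arrays or add the array median to the model as a covariate.

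Promoters are shown for both etoposide targets and for both genes that passed the test after etoposide in WT-TAF3 shX cells. Motifs were searched on both strands as TTTGGCGC and TTTCCCGC (E2F sites), TTTGAA (the CHR element of genes expressed in G2 and M phase) and CCAAT (the NF-Y box), and matches are in capitals. The windows run from 250 bases before to 50 after the RefSeq start, on the gene's strand, in GRCm38.p6: Top2a at chr11:99024140-99024439 (minus strand), Top2b at chr14:16364956-16365255 (plus), Xrcc5 at chr1:72307171-72307470 (plus) and Brca2 at chr5:150522371-150522670 (plus).
Top2a: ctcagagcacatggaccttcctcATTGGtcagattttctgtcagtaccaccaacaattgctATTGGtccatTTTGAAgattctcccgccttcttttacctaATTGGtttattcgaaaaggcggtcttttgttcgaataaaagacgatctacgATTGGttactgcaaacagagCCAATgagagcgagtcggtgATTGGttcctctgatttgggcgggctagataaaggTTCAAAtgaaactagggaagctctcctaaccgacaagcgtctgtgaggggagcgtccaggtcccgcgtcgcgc
Top2b: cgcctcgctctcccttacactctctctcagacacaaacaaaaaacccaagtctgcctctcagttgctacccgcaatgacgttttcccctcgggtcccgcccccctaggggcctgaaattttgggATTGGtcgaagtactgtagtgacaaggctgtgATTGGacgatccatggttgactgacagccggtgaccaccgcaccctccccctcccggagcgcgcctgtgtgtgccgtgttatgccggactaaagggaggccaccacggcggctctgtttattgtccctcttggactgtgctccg
Xrcc5: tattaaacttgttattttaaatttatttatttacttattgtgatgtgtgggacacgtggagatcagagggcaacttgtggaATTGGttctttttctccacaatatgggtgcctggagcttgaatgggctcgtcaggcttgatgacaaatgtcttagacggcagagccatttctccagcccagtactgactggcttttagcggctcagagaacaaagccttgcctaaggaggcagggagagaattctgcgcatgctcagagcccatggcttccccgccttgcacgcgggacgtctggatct
Brca2: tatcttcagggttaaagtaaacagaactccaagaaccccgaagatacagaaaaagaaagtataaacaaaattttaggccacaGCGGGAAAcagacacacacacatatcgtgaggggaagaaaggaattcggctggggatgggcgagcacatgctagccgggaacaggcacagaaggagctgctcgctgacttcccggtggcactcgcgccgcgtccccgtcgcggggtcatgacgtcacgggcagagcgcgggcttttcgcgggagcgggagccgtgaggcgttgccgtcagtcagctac
The Top2a window held 6 CCAAT boxes and 2 CHR elements, and the CHR element nearest to the start began at position -23. Windows with at least 6 CCAAT boxes made up 0.0791% of 32851 promoter windows, and those with at least 2 CHR elements 2.31%. The window of Xrcc3, another of the 37 genes, also held 6 CCAAT boxes, and it held no CHR element. Top2b had 2 CCAAT boxes and no CHR element, and 11.7% of all windows held at least 2 CCAAT boxes. Brca2 had a single TTTCCCGC at position -168, and Xrcc5 had 1 CCAAT box. RefSeq windows were given for 29 of the 39 genes, 33 windows in all. TTTCCCGC stood in 7 of these 33 windows (21.2%), those of Bard1, Brca2, Chek2, Fancg, Mdc1, Rad51c and Xrcc6, against 1.07% of all windows. CCAAT stood in 19 of 33 (57.6%, against 37.4%), TTTGAA in 4 of 33 (12.1%, against 17.9%) and TTTGGCGC in 0 of 33 (against 0.514%). A match is a run of letters and not a measured binding site.

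Top2a, the isoform of dividing cells, did not pass the fold limit in any comparison of the deposited values, but its signal separated sh-PIP4K2B from shX cells after etoposide. Its arrays read 11.06, 11.07 and 11.15 in KK-TAF3 sh-PIP4K2B cells, 11.01, 10.74 and 10.95 in WT-TAF3 sh-PIP4K2B cells, and 10.57, 10.44 and 10.33 in WT-TAF3 shX cells. After differentiation they read 10.92, 11.03 and 11.09 in KK-TAF3 sh-PIP4K2B cells, 11.26, 11.25 and 11.27 in WT-TAF3 sh-PIP4K2B cells, and 10.73, 10.85 and 11.01 in WT-TAF3 shX cells. Under etoposide every array with sh-PIP4K2B lay above every shX array. KK-TAF3 minus WT-TAF3, both with sh-PIP4K2B, was 0.19 there (SE 0.09, adjusted p = 0.309, limma). The depletion difference was 0.45 (SE 0.09, adjusted p = 0.00466, limma) after etoposide and 0.40 (SE 0.09, adjusted p = 0.0132, limma) after differentiation, both short of 1.4-fold. The one after etoposide passed with the array median in the model (0.50), after a second quantile normalization (0.51) and without sh-PIP4K2B replicate 2 (0.53) or shX replicate 1 (0.52), and the one after differentiation with centred arrays (0.50). Etoposide against differentiation gave 0.08 (adjusted p = 0.569) in KK-TAF3 cells, -0.36 (adjusted p = 0.00348) in WT-TAF3 sh-PIP4K2B cells and -0.41 (adjusted p = 0.0014) in WT-TAF3 shX cells, each by limma. The difference of the depletion effect between treatments was 0.05 (SE 0.12), and its sign changed in 4 settings.

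Top2b, the isoform that non-dividing cells also carry, was lower after etoposide in both sh-PIP4K2B genotypes. Its arrays after etoposide read 10.33, 10.17 and 10.22 in KK-TAF3 sh-PIP4K2B cells, 10.35, 9.95 and 10.03 in WT-TAF3 sh-PIP4K2B cells, and 10.49, 10.20 and 10.02 in WT-TAF3 shX cells. After differentiation they read 10.74, 10.78 and 10.76 in KK-TAF3 sh-PIP4K2B cells, 10.91, 10.89 and 10.87 in WT-TAF3 sh-PIP4K2B cells, and 10.44, 10.50 and 10.61 in WT-TAF3 shX cells. The 3 genotypes overlapped after etoposide, and after differentiation every sh-PIP4K2B array lay above every shX array. Top2b fell by 0.52 in KK-TAF3 cells (SE 0.11, adjusted p = 0.00117, limma) and by 0.78 in WT-TAF3 sh-PIP4K2B cells (SE 0.11, adjusted p = 1.81e-05, limma), and its change in WT-TAF3 shX cells was -0.28 (SE 0.11, adjusted p = 0.0674, limma). The fall in WT-TAF3 sh-PIP4K2B cells was past the threshold in every setting tried, and the one in KK-TAF3 cells was lost without etoposide replicate 2 of that group or with the array median in the model. The depletion effect on Top2b differed between treatments by -0.50 (SE 0.15, adjusted p = 0.0528, limma), just short of the threshold, and -0.62 to -0.37 without single arrays. It passed without sh-PIP4K2B replicate 1 after etoposide (-0.62, adjusted p = 0.00664), without shX replicate 3 after etoposide (adjusted p = 0.0352) or after differentiation (adjusted p = 0.0477), with centred arrays (-0.64), with a trended prior (adjusted p = 0.0412) and among bright genes (adjusted p = 0.0420), each by limma.

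**Figure D1:**
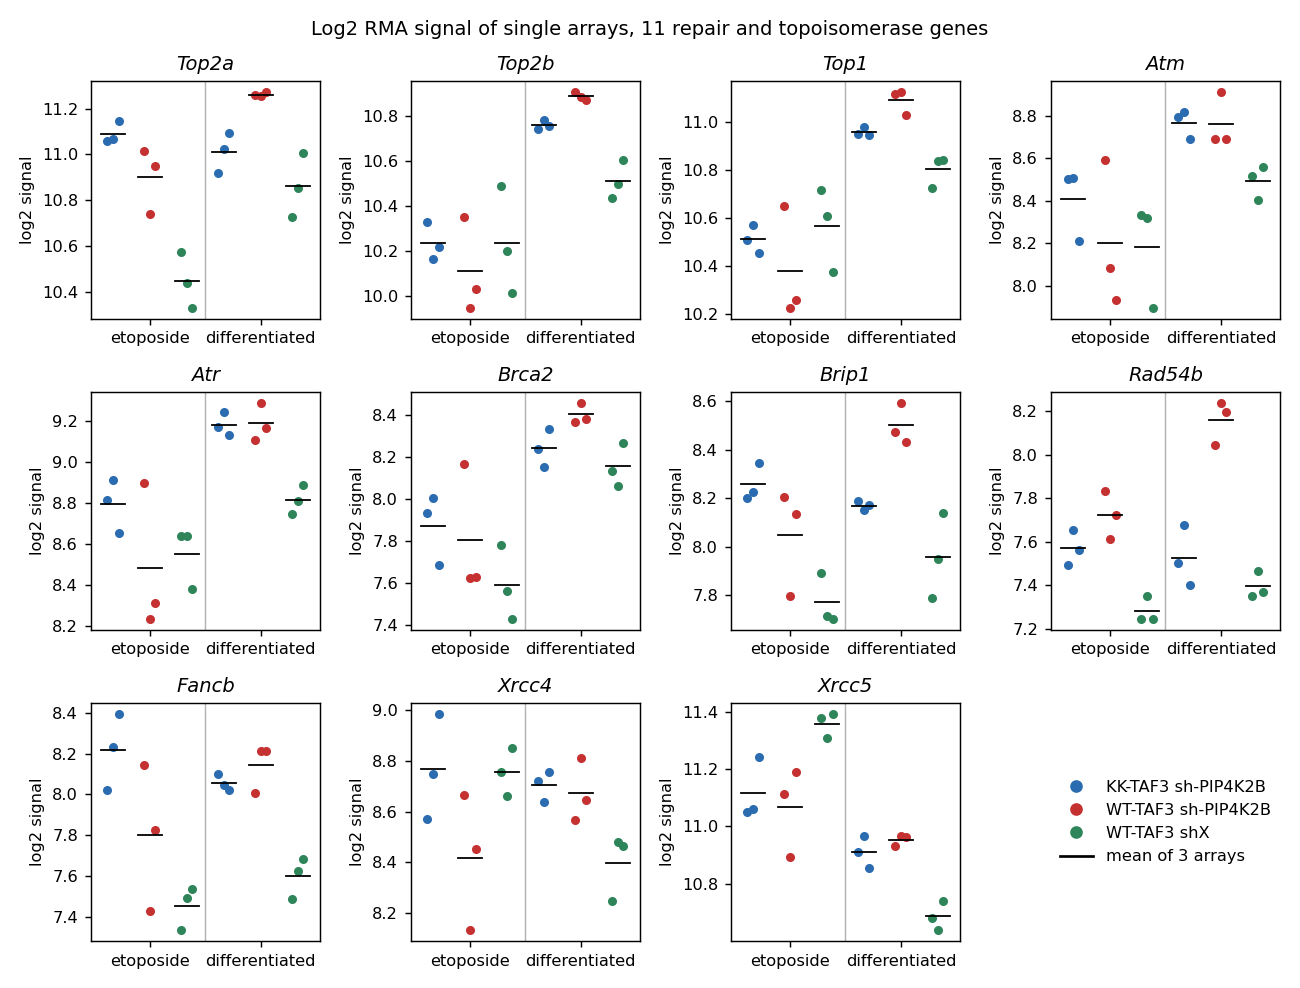
Log2 signal of 11 genes on every array, with etoposide-treated groups left and differentiated groups right of the grey line in each panel, and the mean of 3 arrays as a bar; each panel has its own axis. Top2a separates sh-PIP4K2B from shX arrays after etoposide, with 10.74 as the lowest of the 6 sh-PIP4K2B arrays and 10.57 as the highest shX array, and Rad54b stands highest in differentiated WT-TAF3 sh-PIP4K2B cells.

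Of the other enzymes of this group, Top1, the type I topoisomerase that nicks a single strand, was also lower after etoposide in WT-TAF3 sh-PIP4K2B cells. Its arrays after etoposide read 10.65, 10.23 and 10.26 in WT-TAF3 sh-PIP4K2B cells, against 11.12, 11.13 and 11.03 after differentiation. All etoposide arrays of this genotype lay below its differentiated arrays. Top1 fell by 0.71 there (SE 0.10, adjusted p = 2.13e-05, limma). The change was -0.45 in KK-TAF3 cells (adjusted p = 0.00235, limma), short of 1.4-fold, and -0.23 in WT-TAF3 shX cells (adjusted p = 0.0987, limma). Tdp1 and Tdp2, which free DNA ends from trapped type I and type II enzymes, did not pass the test in any comparison. Their etoposide differences were -0.03 and 0.14 in KK-TAF3 cells, 0.01 and -0.18 in WT-TAF3 sh-PIP4K2B cells, and 0.03 and -0.04 in WT-TAF3 shX cells.

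Few of the 37 genes passed the test for etoposide against differentiation in KK-TAF3 and WT-TAF3 shX cells. More fell in WT-TAF3 sh-PIP4K2B cells, where the count changed with the processing. In KK-TAF3 cells 0 rose, against 3.52% of all genes, and 1 fell, against 4.81%. In WT-TAF3 sh-PIP4K2B cells 0 rose (3.64% of all genes) and 5 fell (6.3%), which was 13.5% of the 37. In WT-TAF3 shX cells 1 rose (4.71%) and 1 fell (2.92%). The median difference of the 37 genes was 0.04 in KK-TAF3 cells, -0.18 in WT-TAF3 sh-PIP4K2B cells and -0.04 in WT-TAF3 shX cells, beside 0.03, 0.07 and -0.05 for all genes in the same order. The sign of the KK-TAF3 median turned with centred arrays (-0.02) and with a second quantile normalization (-0.02). Wherever a count of called genes is 0, here and below, it was also 0 when the p was left unadjusted and the fold limit kept, except for the difference of KK-TAF3 effects. At an adjusted p under 0.05 with no fold limit, the counts higher and lower were 6 and 5 in KK-TAF3 cells (12.8% and 12.6% of all genes), 2 and 14 in WT-TAF3 sh-PIP4K2B cells (18.7% and 16%), and 4 and 3 in WT-TAF3 shX cells (14.6% and 8.57%).

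The rise in WT-TAF3 shX cells was Xrcc5, which encodes KU80, the subunit that grips a broken end together with KU70. Its arrays read 11.38, 11.31 and 11.39 after etoposide, against 10.68, 10.64 and 10.74 after differentiation. No etoposide array came near the differentiated range. Xrcc5 rose by 0.67 (1.59-fold, SE 0.08, adjusted p = 2.46e-06, limma), and the call held in every setting tried. In WT-TAF3 sh-PIP4K2B cells the etoposide arrays read 11.11, 10.89 and 11.19, against 10.93, 10.97 and 10.96 after differentiation, and the ranges overlapped. The change was 0.11 there (adjusted p = 0.257, limma) and 0.21 in KK-TAF3 cells (adjusted p = 0.0559, limma), where the arrays read 11.05, 11.06 and 11.24 after etoposide and 10.91, 10.97 and 10.85 after differentiation.

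The fall was Brca2, a central gene of homologous recombination. Its arrays in WT-TAF3 shX cells read 7.78, 7.56 and 7.43 after etoposide, against 8.13, 8.06 and 8.27 after differentiation, with no overlap. Brca2 fell by 0.56 (SE 0.13, adjusted p = 0.0025, limma), a call that was lost without replicate 3 of the etoposide group. In WT-TAF3 sh-PIP4K2B cells its arrays read 8.16, 7.62 and 7.63 after etoposide, against 8.37, 8.46 and 8.38 after differentiation. It fell there by 0.60 (SE 0.13, adjusted p = 0.00128, limma), with replicate 1 standing well above the other etoposide arrays. In KK-TAF3 cells the arrays read 7.93, 8.005 and 7.68 after etoposide and 8.24, 8.15 and 8.33 after differentiation, a change of -0.37 (adjusted p = 0.0383, limma) that was short of 1.4-fold.

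The other falls in WT-TAF3 sh-PIP4K2B cells were the apical kinases Atm and Atr, which signal double-strand breaks and exposed single strands. Atm read 8.59, 8.08 and 7.93 after etoposide, against 8.69, 8.91 and 8.69 after differentiation, and fell by 0.56 (SE 0.14, adjusted p = 0.0052, limma), a call that was lost without etoposide replicate 3 (-0.43, adjusted p = 0.0393). Atr read 8.90, 8.23 and 8.31 after etoposide, against 9.11, 9.29 and 9.17 after differentiation, and fell by 0.71 (SE 0.13, adjusted p = 0.000346, limma). The SD was 0.34 for Atm and 0.36 for Atr after etoposide, beside 0.13 and 0.09 after differentiation. The SE of each rests on the spread pooled over all 6 groups. In both genes replicate 1 lay closer to the differentiated arrays than to its own group. Without replicate 1 the number of the 37 genes that fell in this genotype was 10. With the array median in the model it was 1, and Top1, Atm, Atr and Brca2 were no longer called. The count of all genes called lower also fell in that model, to 705 from 1257 as deposited. Atm and Atr differed by -0.36 and -0.39 in KK-TAF3 cells, and by -0.31 and -0.26 in WT-TAF3 shX cells, none past the threshold.

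In WT-TAF3 sh-PIP4K2B cells 4 of the 5 end-joining genes had a negative etoposide difference, where 60.3% of all genes had a positive one. In WT-TAF3 shX cells all 5 were positive, between 0.03 for Lig4 and 0.67 for Xrcc5, where 39.9% of all genes were. All 7 genes of the BRCA complexes and resection were negative in WT-TAF3 shX cells, as most genes were, between -0.56 for Brca2 and -0.01 for Blm. Blm was positive with centred arrays. Of the 2 dimmer transcript clusters of Bard1, 1 was positive at 0.25 and 1 negative at -0.10, against -0.05 for the brightest, which was kept. These directions were not tested by role. The checkpoint kinase Chek2 differed by 0.47 in KK-TAF3 cells (adjusted p = 0.00135), 0.09 in WT-TAF3 sh-PIP4K2B cells (adjusted p = 0.507) and 0.39 in WT-TAF3 shX cells (adjusted p = 0.0061), each by limma and each short of 1.4-fold. Rad51c, another recombination gene, gave 0.37, 0.05 and 0.41 in the same order. Whether an etoposide change differs between genotypes is the same question as whether a genotype effect differs between treatments, which is tested below.

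**Figure D2:**
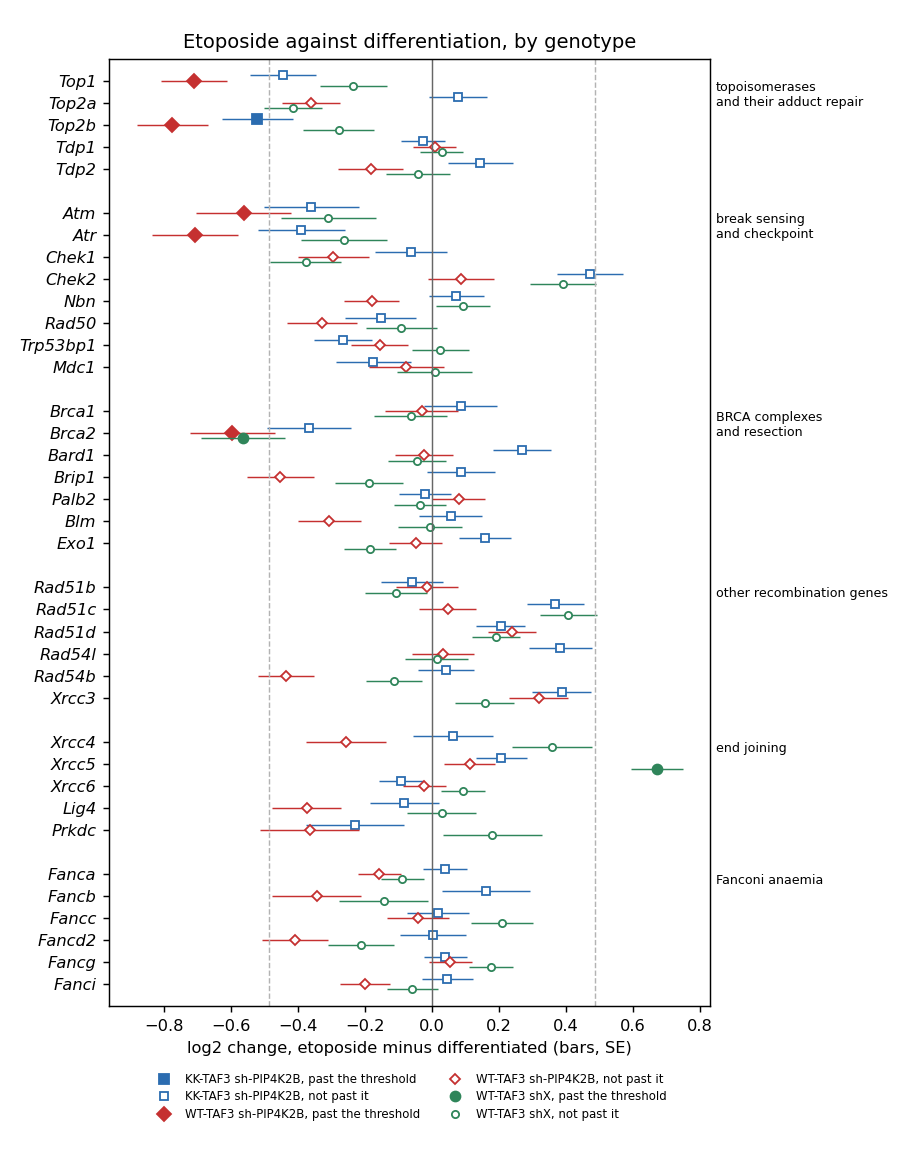
Log2 change, etoposide minus differentiated, of the 37 genes ordered by role, in KK-TAF3 sh-PIP4K2B, WT-TAF3 sh-PIP4K2B and WT-TAF3 shX cells; bars are standard errors, filled symbols passed the test and dashed lines mark 1.4-fold. The filled symbols are 1 gene in KK-TAF3 cells, 5 in WT-TAF3 sh-PIP4K2B cells and 2 in WT-TAF3 shX cells, and Xrcc5 is the single one right of the upper limit.

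For context, 9 of 21 measured p53 targets rose and 2 fell after etoposide in KK-TAF3 cells, and 8 rose and 2 fell in WT-TAF3 sh-PIP4K2B cells and in WT-TAF3 shX cells alike. In WT-TAF3 shX cells the rises were led by Sesn2 (1.71), Trp53inp1 (1.21) and Btg2 (1.21), and the falls were Gadd45a (-0.80) and Sesn1 (-0.52). Of 65 other measured repair genes, 2 rose and 0 fell in KK-TAF3 cells, 1 rose and 4 fell in WT-TAF3 sh-PIP4K2B cells, and 2 rose and 0 fell in WT-TAF3 shX cells. Ercc1, a subunit of the nuclease that trims DNA flaps and unhooks crosslinks, rose in all 3, by 0.78, 0.84 and 0.70. Its companion rises were the nuclease subunits Eme1 (0.54, KK-TAF3) and Mus81 (0.64, WT-TAF3 shX). The named falls in WT-TAF3 sh-PIP4K2B cells were the helicase Wrn (-0.64), the resolvase Gen1 (-0.54) and the SMC complex subunit Smc5 (-0.52). Of 27 proliferation genes, 2 rose and 0 fell in KK-TAF3 cells, 1 rose and 2 fell in WT-TAF3 sh-PIP4K2B cells, and 1 rose and 6 fell in WT-TAF3 shX cells. Mki67 was at -0.86 in WT-TAF3 sh-PIP4K2B cells and -1.13 in WT-TAF3 shX cells.

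PIP4K2B depletion in differentiated WT-TAF3 cells gave a positive difference in 34 of the 37 genes (91.9%), compared with 44.7% of all genes. Their median was 0.25, beside -0.02 for all genes. The gene median per array was 8.69, 8.81 and 8.72 in WT-TAF3 sh-PIP4K2B cells, against 8.52, 8.48 and 8.56 in WT-TAF3 shX cells, and the ranges did not overlap. By the test 3 of the 37 rose, against 0.682% of all genes, and 0 fell, against 0.376%. At an adjusted p under 0.05 with no fold limit, 13 were higher (3.21% of all genes) and 0 lower (2.93%). These 13 were Rad54b, Fancb, Brip1, Fancd2, Top2a, Brca1, Top2b, Chek2, Bard1, Rad51c, Xrcc5, Fancg and Fanca. The exceptions in sign were Xrcc3 (-0.12), Tdp1 (-0.07) and Rad51d (-0.02).

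Rad54b, a DNA translocase of homologous recombination, rose most. Its arrays read 8.04, 8.24 and 8.20 in WT-TAF3 sh-PIP4K2B cells, against 7.35, 7.47 and 7.37 in WT-TAF3 shX cells. The difference was 0.76 (1.70-fold, SE 0.08, adjusted p = 1.96e-05, limma), and it was called in every setting that tested the gene. Fancb, a subunit of the Fanconi core complex that marks stalled forks, read 8.01, 8.21 and 8.21 in sh-PIP4K2B cells, against 7.48, 7.63 and 7.68 in shX cells, and rose by 0.55 (SE 0.13, adjusted p = 0.0239, limma). Brip1, the helicase partner of BRCA1, read 8.47, 8.59 and 8.43 in sh-PIP4K2B cells, against 7.79, 7.95 and 8.14 in shX cells, and rose by 0.54 (SE 0.10, adjusted p = 0.00462, limma). No sh-PIP4K2B array of these 3 genes overlapped a shX array. Leaving out replicate 1 of the differentiated shX arrays ended the calls of Fancb and Brip1 and left 1 gene called, and Fancb was also lost when any 1 of 3 other arrays was left out.

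By role, the difference was positive in all 8 sensing and checkpoint genes (0.08 to 0.38), all 7 genes of the BRCA complexes and resection (0.03 to 0.54), all 5 end-joining genes (0.16 to 0.35) and all 6 Fanconi genes (0.16 to 0.55). It was positive in 4 of 5 topoisomerase and adduct repair genes and in 4 of the 6 other recombination genes, which are Rad51b, Rad51c, Rad51d, Rad54l, Rad54b and Xrcc3. Array medians moved with the shRNA in differentiated cells: they were 7.33, 7.25 and 7.30 in WT-TAF3 sh-PIP4K2B cells, against 7.41, 7.40 and 7.35 in WT-TAF3 shX cells. With the array median in the model the median of the 37 genes was 0.11, beside -0.00060 for all genes, and 1 gene, Rad54b, was called. That model called 58 of all genes higher, against 136 as deposited. With arrays centred on their medians the median of the 37 was 0.34, beside 0.07 for all genes. Then 5 of the 37 and 318 of all genes were called higher. The median of the 37 lay 0.27 above that of all genes with centring and without it. A second transcript cluster of Nbn, a subunit of the break-sensing MRN complex, disagreed in sign with the brighter one that was kept, at -0.32 against 0.08. Proliferation genes moved the same way: 27 of 27 were positive with a median of 0.18, and 2 rose (Ccne2 and E2f2). Per array their median was 10.55 to 10.59 in sh-PIP4K2B cells, against 10.39 to 10.40 in shX cells. What part of the repair gene differences goes with them was not tested. Of the 65 other repair genes 53 were positive, with a median of 0.13, and 0 were called in either direction.

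After etoposide the same depletion gave a mixed picture. The difference was positive in 24 of the 37 genes and in 56.3% of all genes, with a median of 0.05 beside 0.02 for all genes, and 0 rose (0.321% of all genes) and 0 fell (0.547%). At an adjusted p with no fold limit 6 were higher (1.04% of all genes) and 1 was lower (2.11%). The 6 were Top2a, Rad54b (0.44), Chek1 (0.43), Brca1 (0.42), Bard1 (0.34) and Exo1 (0.33), and the lower one was Xrcc5 (-0.29). Rad54b read 7.83, 7.61 and 7.72 in WT-TAF3 sh-PIP4K2B cells, against 7.25, 7.35 and 7.25 in WT-TAF3 shX cells, again without overlap. All 7 genes of the BRCA complexes and resection were positive (0.02 to 0.42), and 4 of 5 end-joining genes were negative (down to -0.34 for Xrcc4).

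The spread of the WT-TAF3 sh-PIP4K2B etoposide arrays sets how much this comparison can show. The median SD of the 37 genes was 0.17 in this group, 0.10 in WT-TAF3 shX cells after etoposide, and 0.08 in each WT-TAF3 group after differentiation. Without replicate 2 of that group, the array with the highest median, 5 genes were called higher, and without replicate 3 or shX replicate 1 the counts were 1 and 2. With the array median in the model 4 were called higher. For all genes the count called higher was 96 in that model, against 64 as deposited. Fancb after etoposide read 8.15, 7.43 and 7.83 in sh-PIP4K2B cells, against 7.33, 7.49 and 7.54 in shX cells, so that a difference of 0.35 (adjusted p = 0.196, limma) had overlapping arrays. Brip1 read 8.21, 7.80 and 8.13, against 7.89, 7.72 and 7.70, a difference of 0.28 (adjusted p = 0.177, limma). Of 27 proliferation genes 9 rose and 0 fell here, with a median of 0.44, led by Ccne2 (0.68), Plk1 (0.67) and Aurka (0.61). Of the 65 other repair genes 0 were called.

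**Figure D3:**
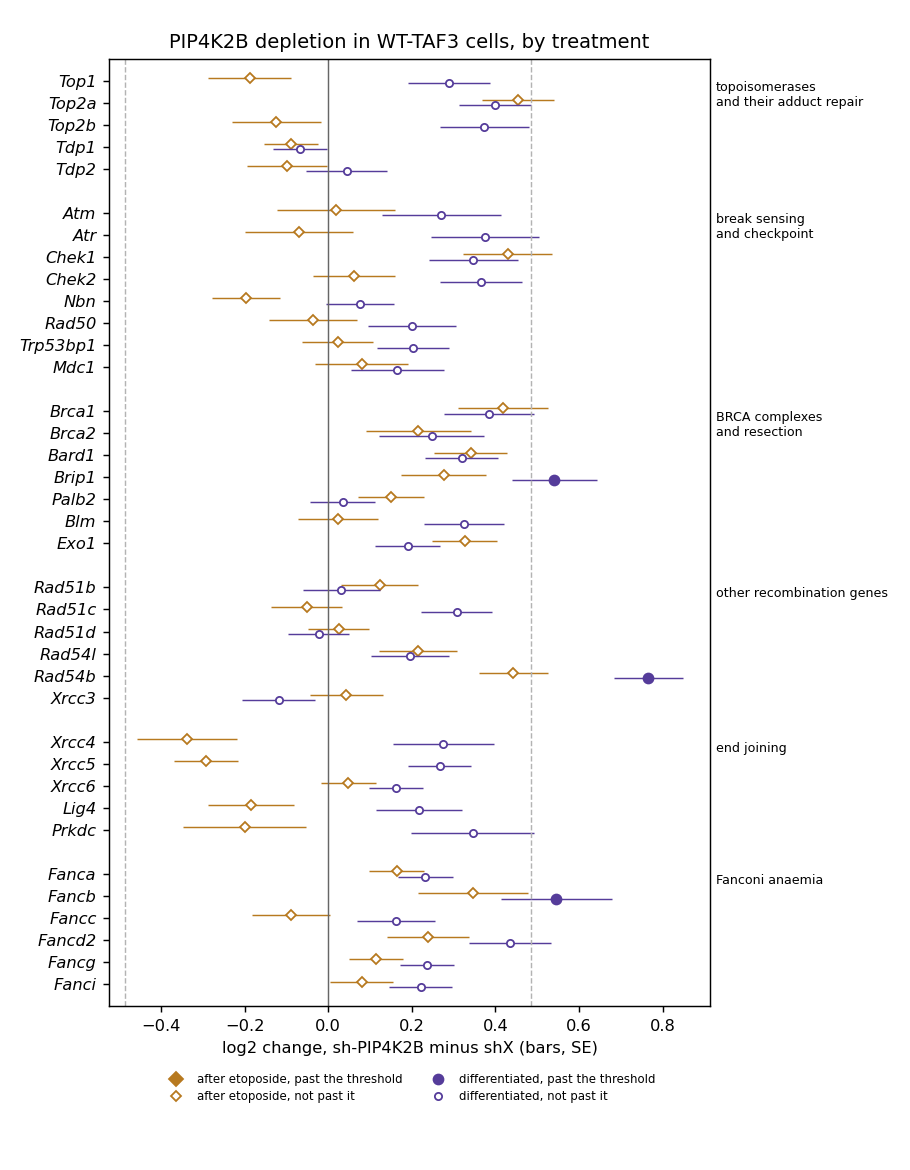
Log2 change, sh-PIP4K2B minus shX in WT-TAF3 cells, of the 37 genes ordered by role, after etoposide (diamonds) and after differentiation (circles); bars are standard errors, filled symbols passed the test and dashed lines mark 1.4-fold. The diamonds lie right of 0 for 24 genes and the circles for 34, and the 2 sets part most among the end-joining genes.

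Both genes that passed the test for a depletion effect differing between treatments belong to end joining. The difference of effects, etoposide minus differentiation, was negative in all 5, at -0.61 for Xrcc4, -0.56 for Xrcc5, -0.55 for Prkdc, -0.40 for Lig4 and -0.11 for Xrcc6, and in all 6 Fanconi genes (-0.25 to -0.07), while 55% of all genes were positive. Over the 37 genes 0 passed the test with a higher effect after etoposide (1.95% of all genes) and 2 with a lower one (2.07%), which was 5.41% of the 37. At an adjusted p with no fold limit 0 were higher and 3 lower, beside 654 and 675 of all 19938 genes. The third was Top1, outside end joining, with depletion effects of -0.19 after etoposide and 0.29 after differentiation. The median was -0.18 beside 0.04 for all genes, and with the array median in the model both medians were 0.01. Centring moved the median of all genes by -0.14 and the median of the 37 to -0.32, which was -0.22 relative to all genes, as without centring.

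Xrcc5 was the firmer of the pair. Its depletion effect was -0.29 after etoposide and 0.27 after differentiation, a difference of -0.56 (SE 0.11, adjusted p = 0.00976, limma). Xrcc4, the scaffold that holds ligase IV at the ends, read 8.67, 8.13 and 8.45 in WT-TAF3 sh-PIP4K2B cells and 8.75, 8.66 and 8.85 in WT-TAF3 shX cells after etoposide. After differentiation it read 8.57, 8.81 and 8.64 in sh-PIP4K2B cells, against 8.25, 8.48 and 8.46 in shX cells. Its difference of effects was -0.61 (SE 0.17, adjusted p = 0.0426, limma), and sh-PIP4K2B replicate 2 after etoposide was the lowest array. Xrcc4 lost its call in 12 of 22 settings and Xrcc5 in 3 of 22, and both lost it without that array and with the array median in the model. Without replicate 1 of that group 7 of the 37 genes were called lower. Prkdc, the catalytic subunit of DNA-PK, read 9.18, 8.52 and 8.45 in sh-PIP4K2B cells, against 9.10, 8.96 and 8.68 in shX cells after etoposide, and its difference of effects did not pass (adjusted p = 0.0911, limma). Of the 65 other repair genes 0 were called higher and 1 lower, Fancl (-0.52), the ubiquitin ligase of the Fanconi core complex.

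The comparison of KK-TAF3 with WT-TAF3 was made in sh-PIP4K2B cells and shares its WT-TAF3 arrays with the depletion comparison, where they carry the opposite sign. In differentiated cells 0 of the 37 genes rose (0.301% of all genes) and 1 fell (0.216%), Rad54b. Its arrays read 7.50, 7.68 and 7.40 in KK-TAF3 cells, against 8.04, 8.24 and 8.20 in WT-TAF3 cells, with no overlap. Rad54b fell by 0.63 (SE 0.08, adjusted p = 0.000217, limma), also without any 1 of the 6 arrays. The KK-TAF3 arrays came close to the 7.35, 7.47 and 7.37 of WT-TAF3 shX cells. Its signal lies below the median of all genes, so that it was not tested when dim genes were left out. Fancd2 (-0.34, adjusted p = 0.163), Brip1 (-0.33, adjusted p = 0.207) and Top2a (-0.25, adjusted p = 0.328) came next by limma and did not pass, although no KK-TAF3 array of these 3 reached the WT-TAF3 range. Fancb did not follow, with 8.10, 8.05 and 8.02 in KK-TAF3 cells, against 8.01, 8.21 and 8.21 in WT-TAF3 cells. The median of the 37 genes was -0.04, beside 0.02 for all genes. Muscle differentiation also differed between these groups: 8 of 11 muscle markers were lower in KK-TAF3 cells, with a median difference of -0.57 over the 11, and Myod1 (0.20), Des (0.12) and Mef2c (0.04) were not. Among the lower ones Myog, a driver of myoblast differentiation, averaged 6.93 in KK-TAF3 cells and 7.95 in WT-TAF3 cells. Pip4k2b also differed, at 9.86 in KK-TAF3 cells and 9.55 in WT-TAF3 cells. The part of these markers or of the weaker depletion in the Rad54b difference was not tested.

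After etoposide, KK-TAF3 against WT-TAF3 gave positive differences in 31 of the 37 genes and in 47.4% of all genes, with a median of 0.17 beside -0.01 for all genes. The median of the 37 was 0.08 with the array median in the model and 0.12 after a second quantile normalization. By the test 0 rose (0.341% of all genes) and 0 fell (0.0652%). The largest were Chek2 (0.42, adjusted p = 0.0498, limma), just short of 1.4-fold, and Fancb (0.42, adjusted p = 0.178, limma). Fancb read 8.02, 8.23 and 8.39 in KK-TAF3 cells, against 8.15, 7.43 and 7.83 in WT-TAF3 cells. Rad54b read 7.49, 7.66 and 7.56 in KK-TAF3 cells, against 7.83, 7.61 and 7.72 in WT-TAF3 cells, a difference of -0.15 (adjusted p = 0.377, limma). The median of the 37 ranged between 0.06 and 0.25 when single arrays were left out, and without WT-TAF3 replicate 1, the array on which most of these genes were highest, 3 genes were called higher. The KK-TAF3 effect differed between treatments with a median of 0.23 beside -0.02 for all genes, and 0 genes passed with a higher effect after etoposide (0.135% of all genes) and 0 with a lower one (0.015%). At an unadjusted p with the fold limit the counts were 2 and 0, Brip1 (0.54) and Fancb (0.50).

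**Figure D4:**
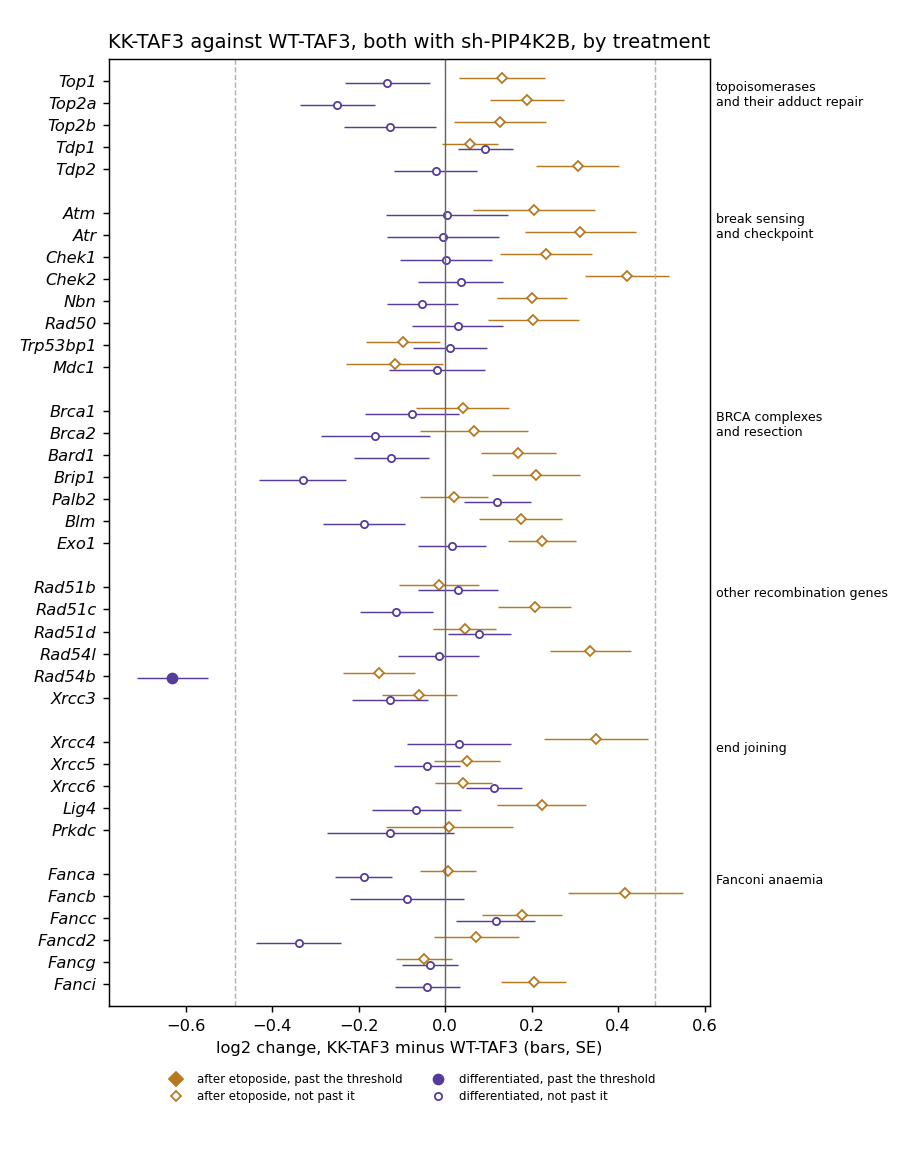
Log2 change, KK-TAF3 minus WT-TAF3 in cells with sh-PIP4K2B, of the 37 genes ordered by role, after etoposide (diamonds) and after differentiation (circles); bars are standard errors, filled symbols passed the test and dashed lines mark 1.4-fold. Rad54b after differentiation, at -0.63, is the single filled symbol.

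Set beside the context lists, the 37 genes had the largest median of these lists in 3 comparisons, depletion after differentiation (0.25, with 0.18 for proliferation genes, 0.16 for p53 targets and 0.13 for other repair genes), KK-TAF3 after etoposide (0.17, with 0.11, 0.11 and 0.07 in the same order) and the difference of KK-TAF3 effects (0.23, with 0.22, 0.08 and 0.09). After etoposide the depletion median was 0.05 for the 37 and 0.44 for proliferation genes, and the etoposide median in WT-TAF3 shX cells was -0.04 for the 37 and -0.31 for proliferation genes. The etoposide medians of the 37 and of proliferation genes lay closer in KK-TAF3 cells (0.04 and 0.12) and in WT-TAF3 sh-PIP4K2B cells (-0.18 and -0.05). Comparisons that share arrays are not independent of each other, and these medians are descriptions without a test.

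**Figure D5:**
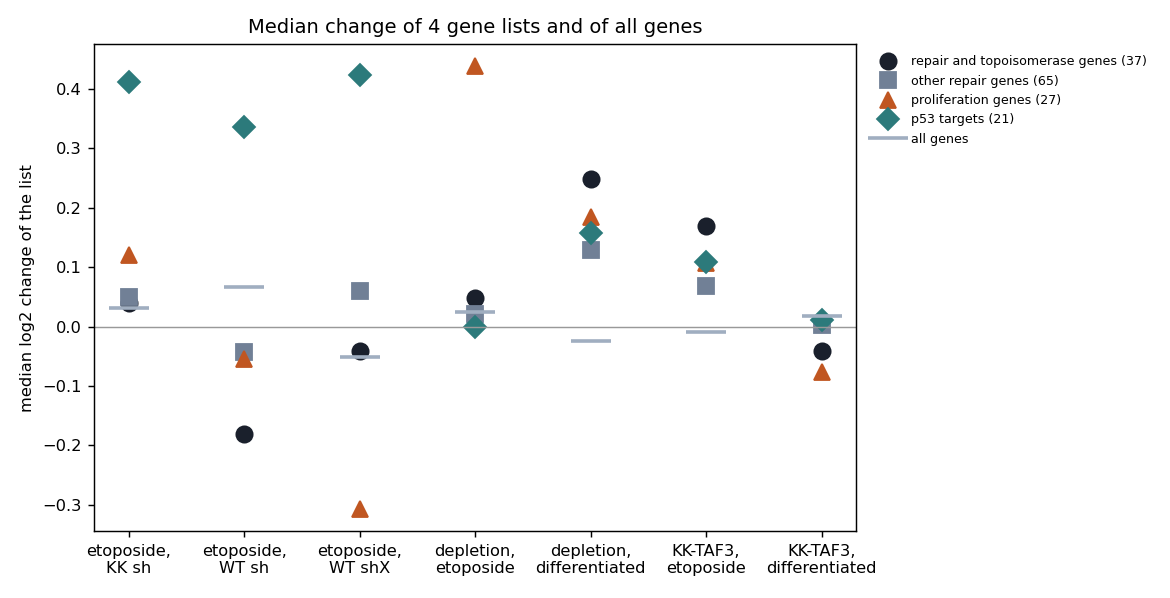
Median log2 change of the 37 repair and topoisomerase genes, 65 other repair genes, 27 proliferation genes, 21 p53 targets and all 19938 genes (grey dashes) in 7 comparisons. The 37 genes stand highest at 0.25 for depletion after differentiation, and p53 targets stand highest in the 3 etoposide comparisons.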

How the data were processed

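RNA of the 18 samples was hybridised to Affymetrix mouse gene arrays. The deposited values are log2 signals that the authors made with RMA in Affymetrix Expression Console, version not given in the sources used here: background correction, quantile normalization and summary of the probes per transcript cluster. They were used as deposited. The platform annotation gives 1 gene symbol to 21789 of 35556 clusters, several to 1621 and no entry to 12146. This annotation is of an earlier chip version than the one in the study's supplement, and gene names rest on it. The brightest cluster of a symbol was kept, which gave 19938 genes, and 4 of the 37 genes described had more than 1 cluster. Groups came from the labels.

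One limma model (R 4.3.3, limma 3.58.1) held the 6 group means (12 residual and 6.05 prior degrees of freedom), with Benjamini-Hochberg adjustment over all genes. The study's test is not given in the sources used here, which name a p and a fold limit. The model was tested on simulated data with independent noise for each gene and array. The simulation held no shift shared by the genes of an array, so it cannot show how such shifts affect the calls. Array numbers limit the precision. Python 3.11.15 was used with numpy 2.4.6, pandas 2.3.3 and, for figures, matplotlib 3.10.9. Promoter windows are from RefSeq (GRCm38.p6).

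The genes, their groups by role and the other lists (70 other repair genes, 28 proliferation genes and 23 p53 targets, of which 65, 27 and 21 were measured) were chosen with earlier results of these data known. Values per array were given for Top2a, Top2b, the 3 largest called rises and falls after etoposide in WT-TAF3 shX cells and each gene called between genotypes; Top1, Atm, Atr and Prkdc, and the promoters of Top2a and Top2b, were added after their values were seen. From the lists up to 3 called genes per direction were named. The test was repeated with centred arrays, with the array median as a covariate, after a second quantile normalization, without a fold limit, with an unadjusted p, on the compared groups alone, on bright genes alone, on all clusters, with a trended prior, with a block for replicate numbers, and with each array left out in turn.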

Additional observations from a re-analysis of the deposited data

Results flagged for a closer look

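Xrcc4 and Xrcc5 stood out because the effect of PIP4K2B depletion in WT-TAF3 cells was not the same in both treatments, by a test of the difference itself. For Xrcc4 the effect after etoposide minus that after differentiation was -0.61 (SE 0.17, adjusted p = 0.0426, limma), with effects of -0.34 and 0.28. For Xrcc5 it was -0.56 (SE 0.11, adjusted p = 0.00976, limma), with effects of -0.29 and 0.27. Neither call held with the array median in the model (adjusted p = 0.542 and 0.140, limma), after a second quantile normalization or without etoposide sh-PIP4K2B replicate 2, and over 22 settings Xrcc4 lost its call in 12 and Xrcc5 in 3. Groups of 3 arrays were not searched for single outlying samples.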

How the results depend on the processing

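Over all results and alternatives other than leaving out an array, 492 values were kept and 57 were not. A single gene was kept when its direction and its side of the threshold held. A count was kept when it stayed near the first count. A median was kept when it moved by less than 0.115, the pooled SD of the array medians of the 37 genes, even where its sign turned. With the array median as a covariate the counts of the 37 genes were 1 lower for etoposide in WT-TAF3 sh-PIP4K2B cells (5 without it), 1 higher and 0 lower for etoposide in KK-TAF3 cells (0 and 1), 1 higher for depletion after differentiation (3), 4 higher for depletion after etoposide (0) and 0 lower for the difference of depletion effects (2). For all genes the same counts were 705 (1257), 727 and 663 (702 and 959), 58 (136), 96 (64) and 57 (413). With centred arrays the counts of the 37 were 8 lower, 2 lower, 5 higher and 5 lower for etoposide in WT-TAF3 sh-PIP4K2B and KK-TAF3 cells, depletion after differentiation and the difference of depletion effects, and that difference was -0.089 for Top2a (0.05). The counts of all genes moved the same way, to 1939, 1204, 318 and 1290 in that order, from 1257, 959, 136 and 413. A second quantile normalization gave 8 of the 37 lower for etoposide in WT-TAF3 sh-PIP4K2B cells. It gave 1 higher for depletion after etoposide and 1 lower for the difference of depletion effects. The gene called lower for that difference was neither Xrcc4 nor Xrcc5. Of all genes 1141, 87 and 289 were called in the same order. Among genes above the median signal depletion after differentiation gave 1 higher, and KK-TAF3 after differentiation 0 lower, because Rad54b and Fancb are dimmer and were not tested. With only the compared groups in the model the difference of depletion effects gave 1 lower, and with an unadjusted p it gave 4 lower and that of KK-TAF3 effects 2 higher. With no fold limit the counts higher and lower for etoposide were 6 and 5 in KK-TAF3, 2 and 14 in WT-TAF3 sh-PIP4K2B and 4 and 3 in WT-TAF3 shX cells, with 6 higher and 1 lower for depletion after etoposide, 13 higher for depletion after differentiation, and 1 higher for KK-TAF3 after etoposide. Other than where the construction shows it, the cause was not tested.

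Without single arrays the counts ranged between 0 and 1 in either direction for etoposide in KK-TAF3 cells, 5 and 10 lower in WT-TAF3 sh-PIP4K2B cells, and 0 and 1 lower in WT-TAF3 shX cells. They ranged between 0 and 5 higher for depletion after etoposide, 1 and 4 higher after differentiation, 0 and 3 higher for KK-TAF3 after etoposide, and 0 and 7 lower for the difference of depletion effects. Their medians ranged between -0.0032 and 0.09 for depletion after etoposide and between -0.06 and 0.0035 for etoposide in WT-TAF3 shX cells, so both signs occurred, and between 0.22 and 0.30 for depletion after differentiation. Top2b ranged between -0.24 and 0.0034 for depletion after etoposide, positive without WT-TAF3 shX replicate 1. The difference of depletion effects of Top2a ranged between -0.019 and 0.13, and it was -0.0027, -0.0048 and -0.019 without WT-TAF3 sh-PIP4K2B etoposide replicate 1, WT-TAF3 shX etoposide replicate 3 or WT-TAF3 shX differentiated replicate 3. Calls of all genes split differently under other scaling: the share higher for the difference of depletion effects was 48.4% as deposited, 4.87% centred and 33.4% after a second quantile normalization, and for depletion after differentiation 64.5% as deposited, 91.1% centred and 40.3% with the covariate. It was 37% for depletion after etoposide (20.3% centred, 54.2% with the covariate), 36.6% for etoposide in WT-TAF3 sh-PIP4K2B cells (17.2%, 51.4%), 42.3% in KK-TAF3 cells (29.7%, 52.3%) and 84% for KK-TAF3 after etoposide (73.3% quantile, 73.2% with the covariate). Array numbers shared by the groups did not pair the arrays: same-numbered arrays correlated between -0.42 and 0.59 in their deviations (median 0.03), and 6 of 18 correlated best with their own number. A replicate block left the counts unchanged, at 3 higher for depletion after differentiation and 5 lower for etoposide in WT-TAF3 sh-PIP4K2B cells, for example. The spread among etoposide-treated WT-TAF3 sh-PIP4K2B arrays limits every result that uses them.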
